A study of Mus musculus with 11 samples.

Results

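The 33 genes described here encode structural proteins of the cardiac sarcomere and its Z-disc, with the chaperones and ubiquitin ligases that build and remove them. They were chosen by gene symbol, and all 33 were found among the 23420 genes of the table. The samples were RNA from mouse heart tissue. The Control group (2 libraries) has the label Control, heart tissue and the Cd36 loxp strain, and whether it carried a Cre is not given. The endothelial knockout (label EC cd36 KO, 3 libraries, here EC KO) was made with Tie2-cre, whose promoter is active in endothelial and also in blood-forming cells. The cardiomyocyte knockout (label MHC cd36 KO, 3 libraries, here CM KO) was made with MHC-cre. The group labelled Total cd36 ko (3 libraries, here Total KO) has no stated origin, and the labels of all 4 groups name the same Cd36 loxp strain. Age, sex, time of collection and the meaning of the library numbers in the labels are not given. The series addresses how endothelial CD36, a fatty acid transporter, affects lipid and glucose metabolism.

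A sarcomere is the contractile unit of striated muscle. Its thin filaments of actin, tropomyosin and troponin are anchored in the Z-disc by alpha-actinin, and titin spans from the Z-disc to the M-band, where myomesins cross-link the thick filaments. LIM-domain proteins, filamin C, desmin and the Xin proteins tie the Z-disc to the membrane and the intermediate filaments. Loaded hearts lean on chaperones such as Bag3 and alphaB-crystallin to clear damaged Z-disc proteins, and the ligases MuRF1 and atrogin-1 mark sarcomere proteins for the proteasome.

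The libraries held 2268403 to 20105673 recovered reads, of which 6.09% to 6.80% came from the 33 genes. EC KO replicate 1 was the library with the fewest reads. Cd36 itself lay between 35425 and 44530 normalized counts in Control. Its range was 25758 to 30308 (EC KO), 15792 to 21610 (CM KO) and 18847 to 23452 (Total KO). Its reads sum all cell types and all exons, and give no view of the cell type that lost Cd36. Within each group the libraries differed by more than sampling noise (chi-square over degrees of freedom, 2.87 to 54.1). No label states separate animals, so the p-values rest only on how these libraries vary, which may be technical.

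Levels were compared between genes as reads per kilobase of exon and per 1e+06 reads of the library, with exon lengths from GENCODE vM21. The length was the union of all annotated exons of a gene, so more annotated exon bases give a lower level for the same reads. Tnnt2 was divided by 7752 bases, Tpm1 by 6485 and Tnnc1 by 1041. In Control replicate 1, Tnnt2 had 177203 reads and Tnnc1 had 58812. Tnnc1, which encodes the calcium sensor troponin C, had the highest median level over the 11 libraries (3319, range 2903 to 3811). Tnni3, the cardiac inhibitory troponin I (2235), Tcap, the titin cap telethonin (1706), Tpm1, the main cardiac tropomyosin (1687), Cryab, alphaB-crystallin (1504), and Tnnt2, cardiac troponin T (1324), followed on the same scale. Neighbours in this order overlapped in their ranges over libraries (Tnnc1 from 2903, Tnni3 up to 2947). Such ranges do not compare a pair of genes within the same library, so they do not decide the order. Tnnt2 (up to 1445) lay below every library of Tpm1 (from 1556) on this scale. The order also depends on the exon lengths used, and was not compared with the lengths of the transcripts expressed. Titin (Ttn), whose exons span 116825 bases, stood at 46.5 on this scale. The 4 lowest genes were Tpm2, Tnnt1, Nebl and Tnni1, at 7.75, 4.66, 3.72 and 0.124 on this scale.

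**Figure D1:**
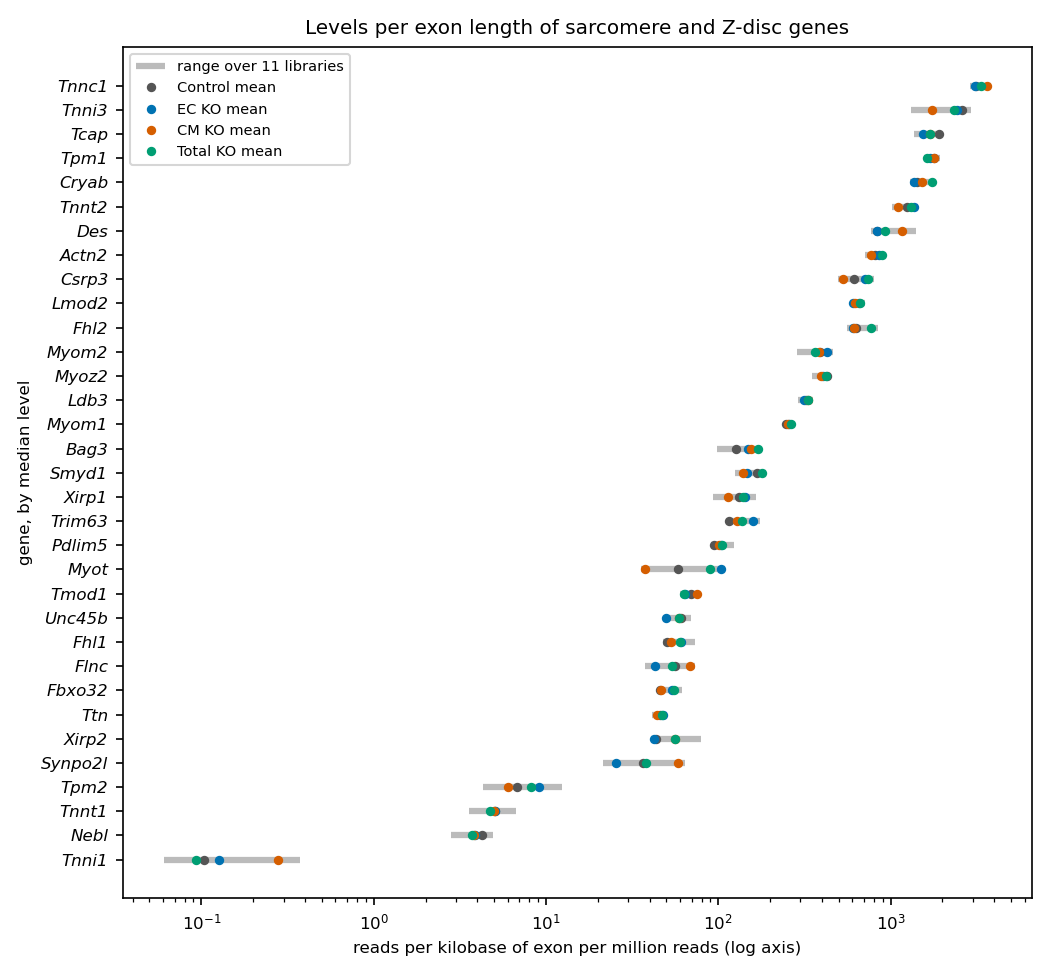
Levels on the length-corrected scale above (log axis) for the 33 genes, ordered by the median over 11 libraries; dots are group means and gray bars the range over all libraries. The CM KO mean of Myot (37.4) lies below its EC KO (103) and Total KO (89.1) means.

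Markers of other muscle types were mixed. Of 9 atrial markers, Myl7 and Sln stood between 0.0 and 31.8 normalized counts, and Myl4 between 12.1 and 64.5. Myh1, Myh2 and Myh4, the fast skeletal myosins, lay between 0.0 and 42.3, and Tnnt3, fast skeletal troponin T, between 4.3 and 9.3. The other skeletal markers apart from Mybpc2 lay between 0.0 and 24.8, and Bmp10, an atrial marker, between 0.0 and 1.6. Of the rest, Mybphl, Dkk3, Mybpc2 and Nppa were higher in CM KO than in Control, and Kcnj3 and Stard10 were lower. Mybphl, an atrial myosin-binding protein, lay between 164 and 267 in CM KO and at most at 23.9 elsewhere (CM KO minus Control 4.57; limma, adjusted p = 0.00882). Dkk3 lay between 124 and 582 against 38.1 to 61.9 elsewhere (2.24; limma, adjusted p = 0.0235), and Mybpc2, a skeletal myosin-binding protein, between 1050 and 1471 against 312 to 753 (1.71; limma, adjusted p = 0.00129). Kcnj3 lay between 201 and 413 and was lower in CM KO (-0.70; limma, adjusted p = 0.0424). Stard10 lay between 247 and 454 and did not pass (-0.45, limma adjusted p = 0.13). In all, 4 of the 6 atrial markers tested passed between CM KO and Control (3 higher and 1 lower), beside 5.7% of all genes. Fewer passed without Control replicate 1, a fit that leaves 1 Control library. Nppa, an atrial gene that ventricles also express under load, lay between 105984 and 215750 in CM KO and between 5317 and 17338 elsewhere, and the part of these markers in the differences of CM KO was not tested.

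Of the 33 genes, 32 had a mean of at least 10 normalized counts and were tested, and Tnni1 was not. Few of them passed against Control. Between EC KO and Control 0 of 32 passed (limma, adjusted p under 0.05 over all 12976 tested genes), where 0.316% of all genes passed. An unadjusted p under 0.05 was found for 4 of the 32 and 1356 of the 12976 (limma). Of the 32, edgeR called 0 and DESeq2 2, and of all genes 50 and 162. Between Total KO and Control 0 of 32 passed by limma, against 0.0848% of all genes. Here 8 of the 32 and 1052 of the 12976 had an unadjusted p under 0.05 (limma). Of the 32, edgeR called 0 and DESeq2 0, and of all genes 14 and 93. In CM KO against Control 1 of 32 passed, Myot, which was lower, against 5.7% of all genes (2.4% lower). That count was 3 without Control replicate 2 and 0 without Control replicate 1, any EC KO or CM KO library, or Total KO replicates 1 or 2. No gene of the 32 passed between Total KO and EC KO by limma, where 0.0385% of all genes did. There 5 of the 32 and 1355 of the 12976 had an unadjusted p under 0.05 (limma). Of the 32, edgeR called 0 and DESeq2 1, and of all genes 4 and 70.

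More genes passed between CM KO and the other knockouts. Against EC KO, 6 of the 32 genes passed, 5 lower and 1 higher (limma, adjusted p under 0.05), which is 18.8% of them beside 19.1% of all genes (10.4% higher and 8.72% lower). Between Total KO and CM KO 5 passed, all higher in Total KO, or 15.6% beside 16.4% of all genes (8.2% higher). Counted in either direction in the main fit, both shares were near the background. By direction, 5 of 32 were lower in CM KO than in EC KO beside 8.72%, and 5 of 32 higher in Total KO than in CM KO beside 8.2%. In Total KO minus CM KO, 7 of 32 passed without CM KO replicate 1, where 1054 of 12927 genes did. Without Total KO replicate 2, 3 of 32 passed, where 1249 of 12978 genes did. The median log2 difference of the 32 genes was -0.15 in CM KO minus EC KO and 0.23 in Total KO minus CM KO, where the medians of all genes were 0.00 and -0.01. These 2 comparisons share the CM KO libraries. Rescaling by library totals moved the medians of all genes to 0.12 and -0.14 and those of the 32 genes to -0.03 and 0.10. Under quantile normalization the medians of the 32 genes were 0.05, with the sign turned (17 of 32 positive in place of 8), and 0.07. After rescaling by library totals 6 genes also passed in CM KO minus EC KO, 3 higher and 3 lower (all genes 2088 and 640 in place of 1348 and 1131). They were not the same 6. Des and Flnc, both higher, passed in place of Fbxo32 and Trim63, and the genes that passed in both kept their direction. In Total KO minus CM KO this rescaling gave 4 of the 32 higher and 1 lower (all genes 547 and 1750 in place of 1064 and 1064). In CM KO minus Control all genes split into 568 and 237 in place of 427 and 312. Over the 4 groups, 5 of 32 passed limma's F test on the contrasts with Control (adjusted p under 0.05), beside 14.3% of all genes.

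Without EC KO replicate 1 or 2 the count of 6 was 2 in each case (all genes 1769 and 1614). Without CM KO replicate 3 it was 3 (all genes 1744). The count of 5 between Total KO and CM KO was 3 without Total KO replicate 2 (all genes 1249). The F test count of 5 was 3 without EC KO replicate 1, CM KO replicate 2 or Total KO replicates 1 or 2. All genes gave 1597, 1804, 1532 and 1308 in that order. It was 2 without EC KO replicate 2, CM KO replicate 3 or Total KO replicate 3 (all genes 1281, 940 and 1142). CM KO replicate 1 held the lowest value of 18 of the 33 genes. With replicate 1 of each knockout group left out, 4 of the 32 genes passed between CM KO and EC KO (4 lower). Between Total KO and CM KO 6 passed (6 higher). Of all 12954 genes tested there, 508 were lower in the former comparison and 422 higher in the latter.

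Summed markers of other cell types differed between CM KO and the other groups, though not every marker of a list did. In the counts of markers between CM KO and EC KO below, the background is 10.4% of all genes higher and 8.72% lower. The summed level of 8 fibroblast markers lay between 26105 and 64434 normalized counts in CM KO and between 14779 and 18710 in the other 3 groups, with 7 of 8 higher in CM KO than in EC KO. That of 8 macrophage markers lay between 7697 and 14716 against 3656 to 5554 elsewhere, with 8 of 8 higher. That of 8 endothelial markers ranged over 14277 to 14991 (CM KO), 16761 to 17396 (Control), 18286 to 20721 (EC KO) and 15289 to 16423 (Total KO), with 5 of 8 lower in CM KO than in EC KO (3 without CM KO replicate 3, 2 after rescaling by library totals). That of 8 smooth muscle markers lay between 7709 and 8532 against 5458 to 7420 elsewhere. Acta2 alone lay between 2572 and 2925 in CM KO against 693 to 1368 elsewhere. Smtn went the other way, with 1359 to 1780 in CM KO and 1987 and 2089 in Control. Between CM KO and Control, 1 of the 8 passed, beside 5.7% of all genes. Of these 8, Acta2, smooth muscle actin, passed between CM KO and Control (1.49; limma, adjusted p = 0.00788), which was lost without Control replicate 1. The sum of 9 cardiomyocyte markers lay between 541986 and 847460 in CM KO and between 965893 and 968766 in Control. In EC KO and Total KO it lay between 999062 and 1106783. Of the 9 markers, 3 were lower in CM KO than in EC KO (0 without EC KO replicate 3, 1 without EC KO replicate 1 or 2). Myh6 was the largest part of this sum, with 212624 to 378362 in CM KO and 405256 and 452323 in Control. Irx4 went the other way, with 519 to 544 in CM KO and 322 and 500 in Control. The mean of Casq2 was also higher in CM KO (17382) than in Control (15430). In whole heart, fewer cardiomyocytes and less RNA per cardiomyocyte cannot be told apart, and the part of these markers in the differences of CM KO was not tested.

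**Figure D2:**
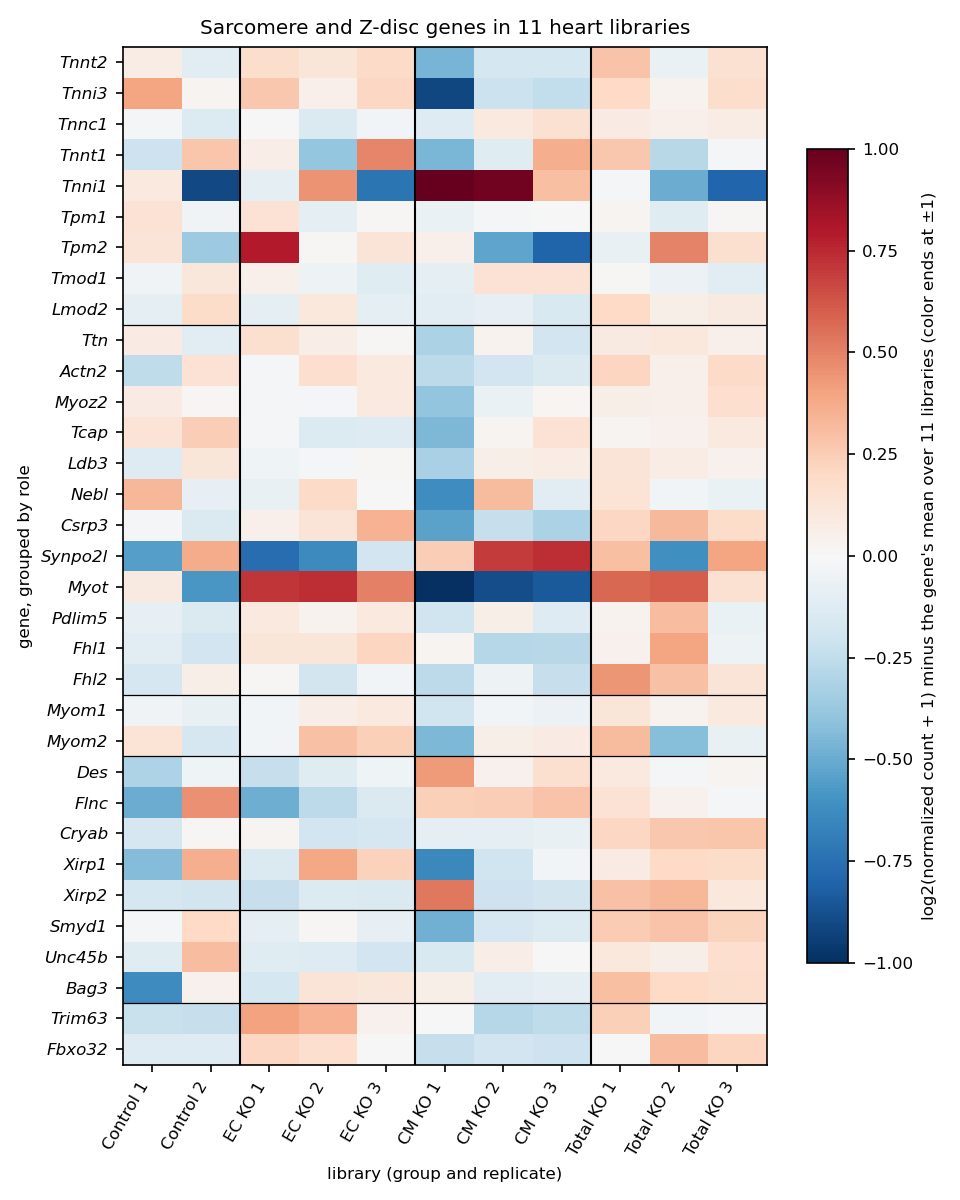
Log2 of the normalized count plus 1 minus the gene's mean over the 11 libraries, for 33 genes (rows, grouped by role) and 11 libraries (columns, grouped by genotype), with colors ending at a difference of 1 in either direction. Myot is high in EC KO and Total KO and low in CM KO, and CM KO replicate 1 holds the lowest value of 18 genes.

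Among the genes of the thin filament, Tnni3 was the 1 that passed in the main limma fit. It encodes the cardiac subunit that holds the thin filament off in the absence of calcium. Its normalized counts were 80603 and 62551 (Control), 73697, 63393 and 70664 (EC KO), 32611, 52870 and 51697 (CM KO), then 70364, 62792 and 69327 (Total KO). All CM KO libraries lay below the other 8, and CM KO replicate 1 was the lowest. Tnni3 was lower in CM KO than in EC KO by a log2 difference of -0.63 ± 0.19 (SE; limma, adjusted p = 0.0362). CM KO minus Control was -0.67 ± 0.21 (limma, adjusted p = 0.0885) and Total KO minus CM KO 0.59 ± 0.19 (adjusted p = 0.0504), which did not pass. Against EC KO it no longer passed without EC KO replicates 1 (-0.58), 2 (-0.69) or 3 (-0.61), CM KO replicate 1 (-0.40), or Total KO replicates 2 or 3 (-0.63 in each), and with the 3 replicates 1 left out it was -0.36. Total KO minus CM KO passed without CM KO replicate 2 (0.72) and without Control replicates 1 or 2 (0.59 in each).

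The other cardiac thin filament genes did not pass in a comparison of the main limma fit. Tnnt2, which attaches the troponin complex to tropomyosin, ranged from 94808 to 115987 normalized counts in CM KO and from 121716 to 159089 in the other 8 libraries, so the groups did not overlap. Its log2 difference for CM KO minus EC KO was -0.43 ± 0.17 (limma, adjusted p = 0.0899), and for Total KO minus CM KO it was 0.39 ± 0.17 (adjusted p = 0.135). The former passed by edgeR (adjusted p = 0.0485) and DESeq2 (adjusted p = 0.00304), and the latter by DESeq2 (adjusted p = 0.00796). Tpm1 averaged 155592 ± 13898 in Control (SD, n = 2), 152382 ± 12113 in EC KO, 146812 ± 3683 in CM KO and 146940 ± 8306 in Total KO (n = 3 each), means that lie closer together than the SD of Control. Tnnc1 averaged 43883 ± 2585, 44525 ± 2378, 47783 ± 4778 and 48598 ± 655 normalized counts in the same order. Tmod1, which caps the pointed end of the filament, lay between 3304 and 3962 in all libraries, and 32.6% of its annotated exon bases overlap exons of Tstd2 on the other strand. Lmod2, which lengthens the filament at that end, lay between 15079 and 19255.

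Tnnt1, the slow skeletal troponin T, stayed rare in every library beside its main cardiac counterpart, as did Tpm2 and Tnni1. Tnnt1 reached between 0.0771% and 0.160% of the Tnnt2 reads of the same library, a ratio that does not depend on scaling, and its libraries overlapped between all groups. Tpm2 stood at 0.109% to 0.300% of Tpm1. Tpm2 had normalized counts of 495, 288 and 311 in EC KO and 296, 197 and 163 in CM KO, which overlap (log2 -0.74 ± 0.25; limma, adjusted p = 0.0562). That difference passed with the 3 replicates 1 left out (-0.74; limma, adjusted p = 0.0351) and without CM KO replicate 1 alone (-0.98). Tnni1, the troponin I of fetal heart and slow muscle, had normalized counts of 7.0 and 3.0 (Control), 6.0, 9.2 and 3.5 (EC KO), 16.2, 13.6 and 8.2 (CM KO), then 6.4, 4.3 and 3.3 (Total KO). The highest values were in CM KO, but its lowest library lay under the highest of EC KO. Tnni1 stood on 1 to 21 reads per library, and 0.0158% to 0.0497% of the Tnni3 reads in CM KO against 0.00477% to 0.0145% elsewhere. Tested without the filter on low values, it did not pass between CM KO and Control (log2 1.23 ± 0.50; limma, adjusted p = 0.236).

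Myot showed the widest differences among the Z-disc genes. It encodes myotilin, which binds alpha-actinin and filamin C at the Z-disc. Its normalized counts were 2129 and 1335 (Control), 3269, 3339 and 2829 (EC KO), 952, 1078 and 1112 (CM KO), then 2969, 3038 and 2217 (Total KO). Every EC KO and Total KO library lay above both Control libraries, and every CM KO library lay below them. Myot was lower in CM KO than in EC KO by a log2 difference of -1.59 ± 0.16 (limma, adjusted p = 2.24e-04). It was higher in Total KO than in CM KO by 1.38 ± 0.16 (limma, adjusted p = 7.36e-04). Both of these passed under all 23 alternatives, each library left out in turn included. Against Control, Myot fell in CM KO by 0.69 on the log2 scale (SE 0.18; limma, adjusted p = 0.047), but this held in 7 of 23 alternatives and was -0.35 without Control replicate 1. EC KO minus Control was 0.90 ± 0.18 (limma, adjusted p = 0.0725) and Total KO minus Control 0.69 ± 0.18 (adjusted p = 0.282), which did not pass. The EC KO difference passed without Control replicate 1 (1.23) and by DESeq2 (0.86).

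Csrp3 encodes muscle LIM protein, a Z-disc protein that takes part in stretch sensing. Its normalized counts were 22782 and 20946 (Control), 23927, 25215 and 29477 (EC KO), 15919, 19683 and 18540 (CM KO), then 26727, 28947 and 26316 (Total KO). Control lay between CM KO, which was lower in every library, and the other 2 knockouts, which were higher in every library. Csrp3 was lower in CM KO than in EC KO (-0.54 ± 0.12; limma, adjusted p = 0.00996) while Total KO exceeded CM KO (0.60 ± 0.12; limma, adjusted p = 0.00783). Under quantile normalization these differences were -0.32 and 0.34 and did not pass. CM KO minus Control was -0.28 ± 0.14 (limma, adjusted p = 0.258).

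Fhl2, a LIM-only protein that binds titin, was higher in Total KO than in CM KO. Its normalized counts were 14791 and 17350 (Control), 16743, 14656 and 16319 (EC KO), 13889, 16042 and 14155 (CM KO), then 22654, 20398 and 18180 (Total KO). All Total KO libraries lay above the other 8. The log2 difference of Total KO minus CM KO was 0.47 ± 0.12 (limma, adjusted p = 0.019). It no longer passed without CM KO replicate 3 (0.45), Total KO replicate 1 (0.39) or Total KO replicate 2 (0.47), with the 3 replicates 1 left out (0.35), or under quantile normalization (0.17).

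Synpo2l, an actin-binding protein of the Z-disc, was higher in CM KO than in EC KO by 1.09 ± 0.28 on the log2 scale (limma, adjusted p = 0.0176). Its normalized counts were 1575 and 2970 (Control), 1359, 1478 and 2019 (EC KO), 2738, 3742 and 3840 (CM KO), then 2831, 1507 and 3025 (Total KO). CM KO and EC KO did not overlap, while the 2 Control libraries were 1.88-fold apart and Total KO replicate 2 lay with EC KO. The difference no longer passed without EC KO replicates 1 (0.98) or 2 (1.04) or CM KO replicate 3, or with the 3 replicates 1 left out (1.13). CM KO minus Control was 0.65 ± 0.31 (limma, adjusted p = 0.253).

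**Figure D3:**
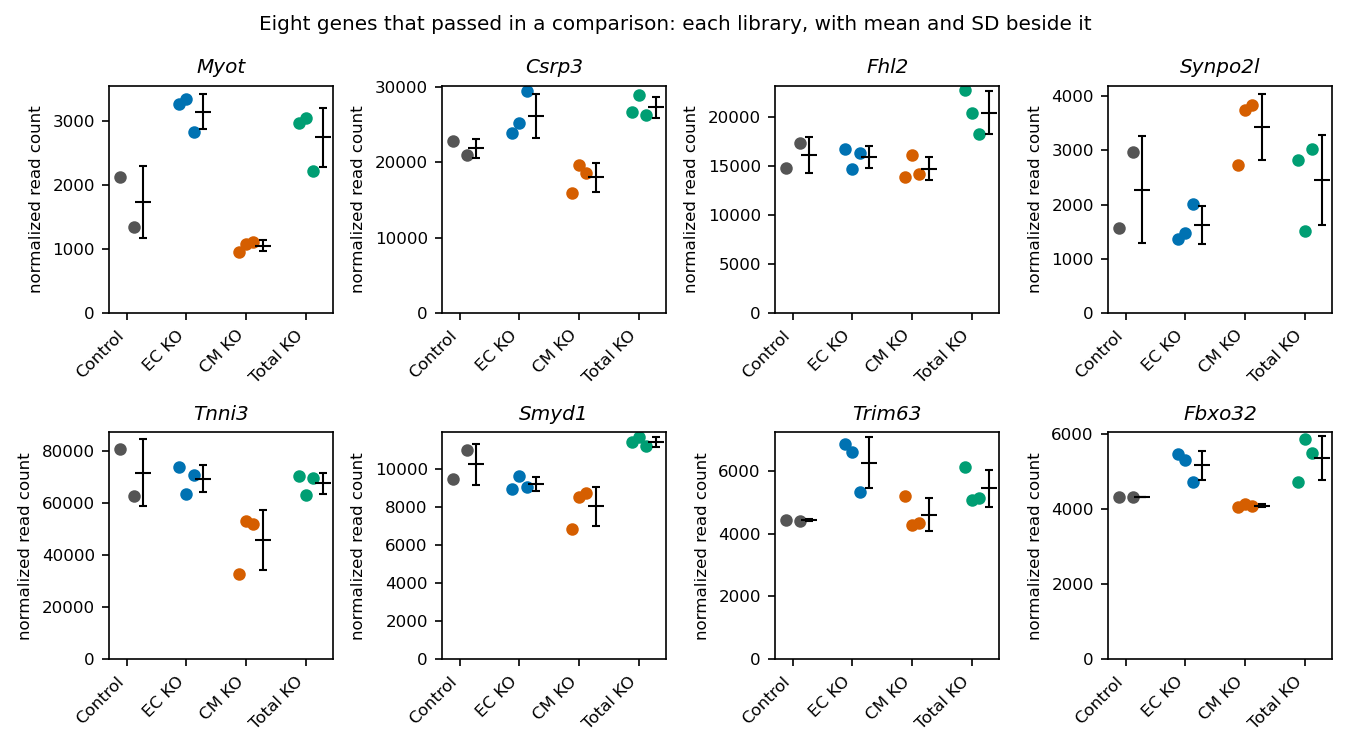
Normalized read counts (axes from 0) of the 8 genes that passed in at least 1 comparison; each dot is a library, and the bar and whiskers beside it are the mean and SD of the group (n = 2 for Control, n = 3 otherwise). All 3 CM KO libraries of Myot lie between 952 and 1112, below the 2217 to 3339 of EC KO and Total KO.

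The promoters of Fhl2, Synpo2l and Trim63 are shown because these 3 genes passed and their windows hold matches to muscle or stress motifs. The 250 bases before a RefSeq transcript start on GRCm38.p6 were taken, 5′ to 3′ on the strand of the gene, with matches in capitals. Of the 33 genes, 27 had an entry, with 39 windows. Fhl2 and Synpo2l have 2 windows each, and the window with more motif matches is shown. The start used for Synpo2l is an internal one, 3780 bases inside the GENCODE gene, and that of Fhl2 lies 223 bases inside it, while that of Trim63 is the GENCODE start.
Fhl2, chr1:43196762-43197011, minus strand: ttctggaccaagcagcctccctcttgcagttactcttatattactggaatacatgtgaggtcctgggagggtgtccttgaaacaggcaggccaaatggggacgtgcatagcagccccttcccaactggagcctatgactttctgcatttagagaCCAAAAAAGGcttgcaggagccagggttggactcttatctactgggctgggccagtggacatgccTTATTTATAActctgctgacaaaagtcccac
Synpo2l, chr14:20664575-20664824, minus strand: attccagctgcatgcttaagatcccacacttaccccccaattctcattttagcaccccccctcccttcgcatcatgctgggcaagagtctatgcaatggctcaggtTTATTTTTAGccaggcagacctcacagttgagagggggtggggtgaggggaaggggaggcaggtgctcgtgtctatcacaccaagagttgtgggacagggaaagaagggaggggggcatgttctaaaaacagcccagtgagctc
Trim63, chr4:134314870-134315119, plus strand: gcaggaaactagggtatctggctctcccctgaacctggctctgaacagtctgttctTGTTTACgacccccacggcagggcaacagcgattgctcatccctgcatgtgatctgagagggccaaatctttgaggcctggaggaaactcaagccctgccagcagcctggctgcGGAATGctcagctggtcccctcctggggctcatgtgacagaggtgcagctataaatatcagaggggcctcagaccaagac
In the Fhl2 window the capitals mark a CArG box, the element that binds serum response factor, starting 96 bases before the transcript start, and a MEF2 box starting 31 bases before it. The Synpo2l window holds a MEF2 box starting 144 bases before that internal start. The Trim63 window holds a FOXO core (GTAAACA on either strand) starting at 194 and an MCAT element (CATTCC on either strand) starting at 80 bases before the start.

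Over the 39 windows of these genes, a MEF2 box was found in 6 (15.4%, beside 2.92% of all 32851 windows of that length), in Fhl2, Myoz2, Synpo2l, Ttn and Xirp2. A CArG box was found in 7 windows (17.9% beside 1.47%), in Fhl1, Fhl2, Ldb3, Myom1 and Nebl. MCAT stood in 7 windows (17.9% beside 12.6%) and the FOXO core in 1 (2.56% beside 3.17%). Both strands were searched, windows of 1 gene can overlap, and a match describes letters and not a bound site.

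The other Z-disc genes did not pass in a comparison of the main limma fit. Ttn, the giant spring that spans the sarcomere, had normalized counts of 76741 and 67274 (Control), 80754, 75895 and 72910 (EC KO), 58169, 74095 and 63162 (CM KO), then 77102, 77851 and 74998 (Total KO). CM KO and Control overlapped, with a log2 difference of -0.15 and a 95% interval from -0.49 to 0.19. Actn2, the alpha-actinin that cross-links thin filaments, ranged from 35355 to 38333 in CM KO and from 44116 to 49185 in Total KO (log2 0.35 ± 0.13; limma, adjusted p = 0.0881), with 35710 and 46981 in Control. Tcap averaged 24448 ± 1354 in Control and 20075 ± 998, 20361 ± 4160 and 22227 ± 612 in EC KO, CM KO and Total KO, with both Control libraries above each EC KO and Total KO library. Myoz2, the calcineurin-binding calsarcin, lay between 18081 and 21310 except in CM KO replicate 1 (14418). Ldb3 (Cypher) lay between 24317 and 29164 except in CM KO replicate 1 (21236). Nebl, which encodes nebulette, lay between 512 and 989, Pdlim5, a PDZ-LIM adaptor, between 10545 and 14979, and Fhl1, a LIM protein that binds titin, between 2300 and 3699. Fhl1 in EC KO (3051 to 3262) stood above Control (2463 and 2590), without passing.

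At the M-band, Myom1 lay between 31363 and 39334 normalized counts and Myom2 between 33827 and 57485. Myom2 reads were 92.6% to 149% of Myom1 reads in the same library, and the Myom2 libraries of all groups overlapped. Neither gene passed in a comparison.

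Genes that link the Z-disc to the cytoskeleton and respond to load did not pass in the main limma fit either, and several split the 2 Control libraries. Flnc, the actin cross-linker filamin C, had normalized counts of 4827 and 9355 (Control), 4840, 5691 and 6151 (EC KO), 8018, 8089 and 8279 (CM KO), then 7509, 6996 and 6716 (Total KO). The 3 CM KO libraries lay above EC KO and Total KO but inside the range of Control (CM KO minus EC KO 0.55 ± 0.18; limma, adjusted p = 0.0527). That difference passed in 8 of 23 alternatives, among them DESeq2 (0.54, adjusted p = 0.0209). Xirp1, which repairs Z-discs and intercalated discs, was 7556 and 13116 in Control and lowest in CM KO replicate 1 (6529). Its relative Xirp2 lay between 6725 and 7209 in Control and EC KO and between 8507 and 9979 in Total KO, and read 11395, 6844 and 6955 in CM KO (Total KO minus Control 0.42 ± 0.18; limma, adjusted p = 0.568). In all, 6 of the 33 genes had Control libraries over 1.5-fold apart (Tnni1, Synpo2l, Myot, Flnc, Xirp1 and Bag3), of which 4 were higher in replicate 2.

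Desmin (Des), the intermediate filament of muscle, had normalized counts of 38370 and 45970 (Control), 40489, 43677 and 46133 (EC KO), 63609, 48883 and 52863 (CM KO), then 50782, 46973 and 48244 (Total KO). CM KO lay above Control and EC KO in every library, but the differences of 0.38 ± 0.15 from Control (limma, adjusted p = 0.175) and 0.34 ± 0.14 from EC KO (adjusted p = 0.106) did not pass. The latter passed after rescaling by library totals (0.46; limma, adjusted p = 0.027). By DESeq2 the difference from Control (0.39, adjusted p = 0.0371) and that from EC KO (0.34, adjusted p = 0.0242) both passed. Cryab, the chaperone of desmin and titin, had 26721 and 30276 (Control), 30719, 26400 and 26814 (EC KO), 28161, 28226 and 28533 (CM KO), then 34669, 36326 and 36496 (Total KO). All Total KO libraries lay above the other 8 (Total KO minus CM KO 0.34 ± 0.11; limma, adjusted p = 0.053). Of its exon bases, 17.0% overlap Hspb2 on the other strand, and the strand setting of the counting is not given in the sources used here.

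Of the genes that fold and assemble sarcomere proteins, Smyd1 passed. It encodes a muscle methyltransferase that works with myosin chaperones. Its normalized counts were 9470 and 10973 (Control), 8918, 9630 and 9048 (EC KO), 6861, 8502 and 8710 (CM KO), then 11381, 11658 and 11170 (Total KO). Total KO lay above, and CM KO below, all libraries of the other groups. Smyd1 was higher in Total KO than in CM KO by 0.51 ± 0.11 (limma, adjusted p = 0.00891) under the main setting and all 23 alternatives. CM KO minus Control was -0.35 ± 0.12 (limma, adjusted p = 0.109). Unc45b, the myosin chaperone, lay between 2995 and 3136 in EC KO and read 3151 and 4243 in Control. Bag3, a co-chaperone of Z-disc turnover, had 3360 and 5340 (Control), 4598, 5666 and 5614 (EC KO), 5412, 4819 and 4849 (CM KO), then 6399, 5962 and 5867 (Total KO). Total KO lay above the others (minus Control 0.52 ± 0.16), but this did not pass (limma, adjusted p = 0.366), and without Control replicate 2 it was 0.85 and passed (limma, adjusted p = 0.0429).

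Both ubiquitin ligase genes were lower in CM KO than in EC KO. Trim63, which encodes MuRF1, had normalized counts of 4446 and 4414 (Control), 6846, 6594 and 5330 (EC KO), 5196, 4264 and 4347 (CM KO), then 6123, 5076 and 5133 (Total KO). Each EC KO library lay above each CM KO and Control library. Its log2 difference of CM KO minus EC KO was -0.44 ± 0.12 (limma, adjusted p = 0.0234), and that of EC KO minus Control was 0.49 ± 0.13 (adjusted p = 0.189). The former no longer passed without EC KO replicates 1 (-0.37) or 2 (-0.40) or CM KO replicates 2 (-0.39) or 3 (-0.40), after rescaling by library totals (-0.32) or under quantile normalization (-0.28).

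Fbxo32, which encodes atrogin-1, had 4323 and 4320 (Control), 5468, 5307 and 4719 (EC KO), 4045, 4144 and 4090 (CM KO), then 4732, 5868 and 5497 (Total KO). The CM KO libraries lay close together and below all others. Fbxo32 was lower in CM KO than in EC KO (-0.33 ± 0.10; limma, adjusted p = 0.0295) while Total KO exceeded CM KO (0.38 ± 0.10; limma, adjusted p = 0.0183). The former no longer passed without EC KO replicates 1 (-0.29) or 2 (-0.31) or CM KO replicates 1 (-0.32) or 3 (-0.33), or with the 3 replicates 1 left out (-0.28), and the latter without Total KO replicates 2 (0.32) or 3 (0.36). After rescaling by library totals they were -0.21 and 0.25, and under quantile normalization -0.20 and 0.24, and did not pass.

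**Figure D4:**
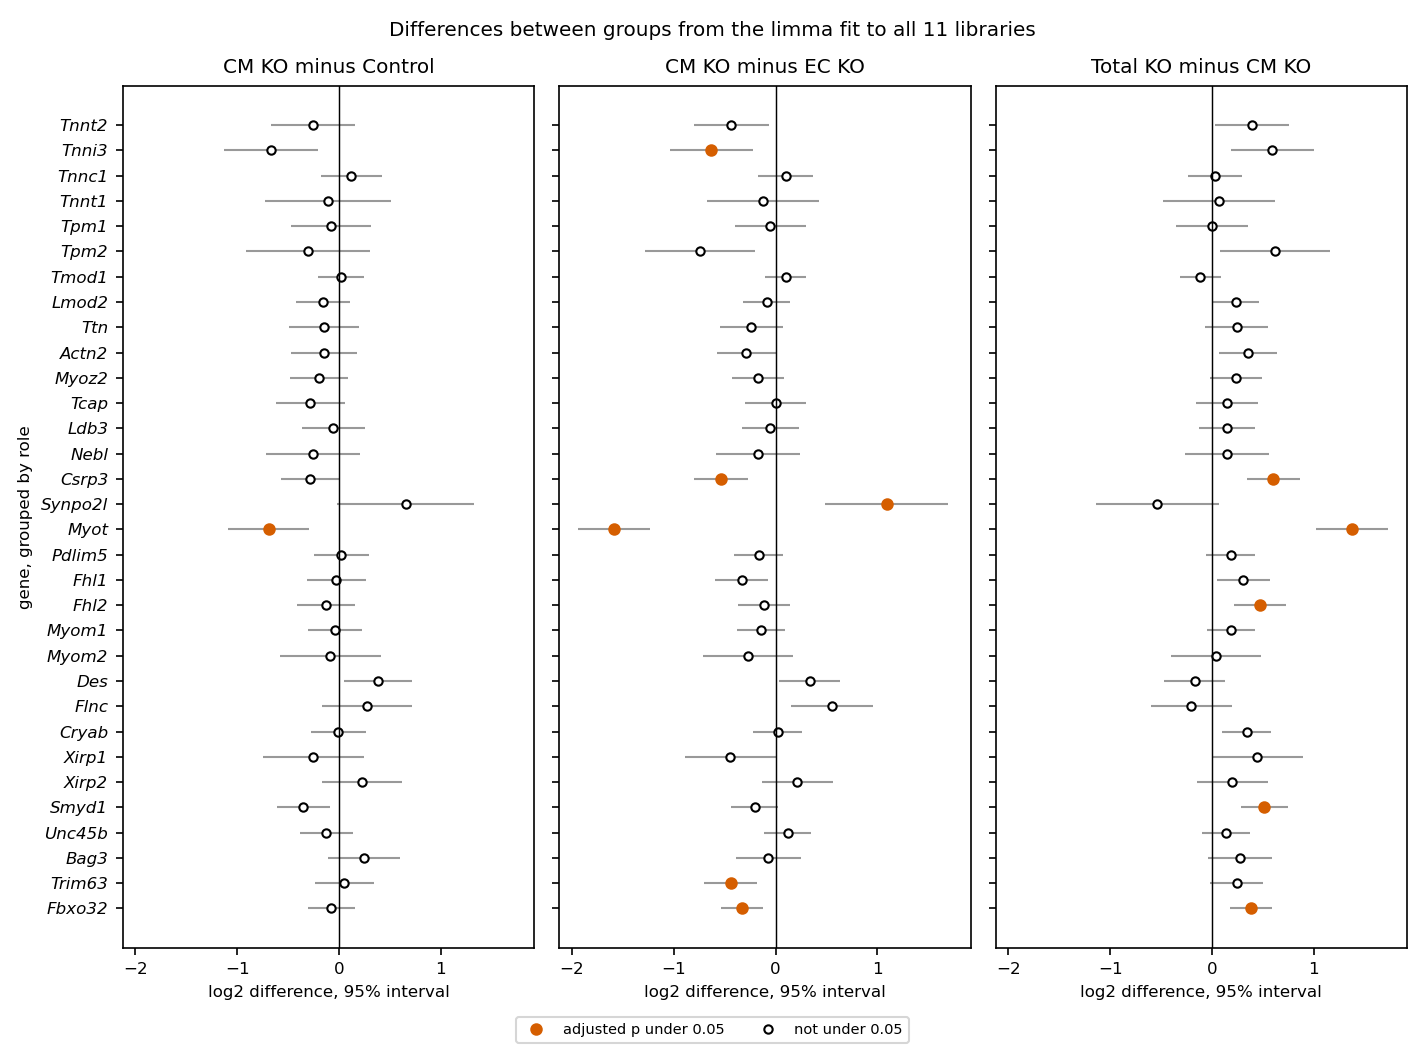
Log2 differences with 95% intervals (gray lines) from the limma fit for the 32 tested genes in 3 comparisons; filled dots passed at an adjusted p under 0.05. One gene passed in CM KO minus Control, 6 in CM KO minus EC KO and 5 in Total KO minus CM KO, and the widest difference is that of Myot (-1.59 and 1.38).

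Genes of the same structures outside the 33 were counted in lists. Of 30 further Z-disc and M-band genes tested, 2 passed between CM KO and Control, where 5.7% of all genes passed. Pdlim1, a PDZ-LIM adaptor, rose (0.48; limma, adjusted p = 0.0206) and Capn3, the muscle calpain, fell (-1.03; limma, adjusted p = 0.047). Between CM KO and EC KO 9 of the 30 passed (5 higher, 4 lower), and between Total KO and CM KO 5 (3 higher, 2 lower), beside the 19.1% and 16.4% of all genes. Cmya5, which encodes myospryn, was lower in CM KO than in EC KO (-0.78; limma, adjusted p = 0.00437) while Total KO exceeded CM KO (0.84; limma, adjusted p = 0.00501).

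Of 12 myosin, actin and ankyrin-repeat genes, 3 passed between CM KO and Control, all higher, where 5.7% of all genes passed. Myh7, the slow myosin, stood at 2.27 (limma, adjusted p = 0.00971), Acta1, skeletal actin, at 1.88 (adjusted p = 0.0219) and Ankrd1, which binds titin, at 1.86 (adjusted p = 0.0189). Acta1 (2.43; limma, adjusted p = 0.0497) and Ankrd23 (1.07, adjusted p = 0.0117) rose in Total KO, and Ankrd23 in EC KO (0.76, adjusted p = 0.0418). The normalized counts of Acta1 were 11255, 30215 and 11255 in Total KO and 2217 and 3777 in Control. Of all genes, 11 passed between Total KO and Control, and 4, 4 and 3 without Total KO replicates 1, 2 and 3. Without Control replicate 1, 0 of the 12 passed between CM KO and Control, and the call of Ankrd23 in EC KO was lost without Control replicate 2 or any 1 EC KO library. Of 26 chaperone and turnover genes 10 passed between CM KO and EC KO (4 higher, 6 lower) and 7 between Total KO and CM KO (6 higher, 1 lower); without CM KO replicate 3 these counts were 6 and 4. Over all genes 19.1% and 16.4% passed in these comparisons. Klhl31, a muscle kelch protein, was lower in CM KO than in Control (-0.58; limma, adjusted p = 0.00702), and Ctsl, a lysosomal protease, rose in EC KO (0.97; limma, adjusted p = 0.0392). Foxo1, a transcription factor that induces both ligase genes, was lower in CM KO than in EC KO (-0.67; limma, adjusted p = 0.00393). Of 13 muscle transcription factors 3 and 2 passed in those comparisons (again beside 19.1% and 16.4% of all genes), and 0 in both with the 3 replicates 1 left out. Tead1, which binds MCAT elements, stood at -0.49 (limma, adjusted p = 0.0125) and 0.38 (adjusted p = 0.0428), and Srf and Mef2c did not pass in a comparison.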

How the data were processed

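RNA of 11 heart samples was sequenced from strand-specific libraries after ribosomal RNA removal, per the labels' protocols. Per the submitters' processing notes, the tools were HTSeq 0.8.0, DESeq2 (as 3.5) and TopHat2, with build mm10; the annotation and counting settings are not given in the sources used here. The deposited signal values are normalized counts, which the authors made by dividing whole reads per gene by a factor per library. Divided by what 1 read is worth in its library, each of the 257620 values gave a whole number to within 0.05 (100.0%), so reads were recovered.

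Genes with a mean of at least 10 (12976) were analysed on the log2(value + 1) scale. All 11 libraries entered 1 fit of limma 3.58.1 (R 4.3.3, variance trend on), with 6 contrasts and an F test. P-values were adjusted by Benjamini-Hochberg over all tested genes and called under 0.05. The steps were tested on simulated data. Also tried were other pseudocounts (0.5, 5) and filters (none, 50), 3 rescalings, a fit to the 2 groups, library weights, edgeR 4.0.16 and DESeq2 1.42.0 on recovered reads, and libraries left out. The count tests called 7 (edgeR) and 10 (DESeq2) of the 32 genes, and 2423 and 2477 of all genes, between CM KO and EC KO. The genes, lists and alternatives were chosen with earlier results of these data known. All 33 genes are named, and at most 6 genes per further list, those of lowest p against Control. Replicate numbers follow the order of deposit. Exon lengths and overlaps came from GENCODE vM21 (GRCm38).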

Additional observations from a re-analysis of the deposited data

How the results depend on the processing

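No paired analysis was possible because the labels pair no samples across groups. With 2 or 3 libraries a group and EC KO replicate 1 at 2268403 reads, small differences were not detectable. In what follows, the number of genes passing is given for all genes and then for the 32. With the fit to 2 groups, CM KO against Control gave 63 and 0 and Total KO against EC KO 14 of all genes. With DESeq2, CM KO against Control gave 1276 and 4, EC KO against Control 162 and 2, and Total KO against EC KO 70 and 1. Total KO against Control gave 93 of all genes. By the same method CM KO against EC KO gave 2477 and 10, and Total KO against CM KO 2524 and 9. Without replicate 1 of each knockout group, all genes gave 1288 (CM KO against EC KO), 64 (EC KO against Control), 977 (F test), 917 (Total KO against CM KO), 72 (Total KO against Control) and 17 (Total KO against EC KO). CM KO against Control gave 516 and 0 there. With no filter, all genes gave 22 (EC KO against Control), 7 (Total KO against Control) and 0 (Total KO against EC KO; 1355 at an unadjusted p under 0.05 with the filter, limma). CM KO against Control gave 543 and 0 with no filter, and the F test 1498 and 1. With a weight per library, EC KO against Control gave 27 of all genes, and CM KO against Control 496 and 0. The weighted fit gave 3442 and 10 for CM KO against EC KO, and 3279 and 12 in the F test. It gave 3553 and 15 for Total KO against CM KO, and 116 and 1 for Total KO against EC KO. Rescaling by library totals gave 26 of all genes for Total KO against Control. For CM KO against Control it gave 805 and 0, and upper-quartile rescaling 725 and 0. A filter at 50 gave 3 of all genes for Total KO against EC KO, and quantile normalization gave 1720 and 2 in the F test. Leaving out each library in turn, all genes ranged from 26 to 999 (CM KO against Control), 1455 to 2582 (CM KO against EC KO), 5 to 84 (EC KO against Control), 940 to 2084 (F test), 1036 to 2272 (Total KO against CM KO), 1 to 33 (Total KO against Control) and 0 to 28 (Total KO against EC KO). The 32 genes ranged from 0 to 3, 2 to 7, 0 to 1, 2 to 8, 3 to 7, 0 to 1 and 0 to 0 in the same order. The cause of these shifts was not tested.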
